A study of Mus musculus with 2 samples.

Results

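The heterogeneous nuclear ribonucleoprotein (hnRNP) and serine/arginine-rich (SR) protein genes were described in long-read RNA sequencing of C2C12 cells. They were chosen by symbol: every annotated gene with reads whose name begins with Hnrnp, Srsf and a digit, or Srrm and a digit, together with Tra2a and Tra2b, pseudogenes left out. The rule found 33 of the 14198 annotated genes read: 19 hnRNP genes, 10 Srsf genes, 2 Tra2 genes and 2 Srrm genes. All 33 had reads in both libraries. Of the 39 annotated symbols that fit the pattern, 6 had no read in either library: Hnrnpul2, Srsf12, Srrm3, Srrm4 and the antisense genes Srrm3os and Srrm4os. A count of 0 in a library allows up to 3 reads, or 3.88 CPM (reads scaled to 1000000 reads of annotated genes) in replicate 1 and 4.15 CPM in replicate 2.

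SR proteins bind exonic sequences through RNA recognition motifs and, with their arginine- and serine-rich tails, help splice sites to be recognised. hnRNP proteins coat nascent transcripts and often act against SR proteins. Many genes of both families carry a poison exon, a cassette whose inclusion brings an early stop codon and sends the transcript to nonsense-mediated decay, by which several of these proteins limit their own level. In muscle cells both families act on the many exons that switch as myoblasts fuse into fibres.

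C2C12 is an immortal mouse myoblast line, obtained from ATCC and first grown out of injured thigh muscle of C3H animals. The study holds 1 group, for which the labels name no treatment, with 2 biological replicates of the line and 1 library each. The labels do not give the state of differentiation, and nothing in them says how the cultures were separated, so a test between the libraries measures counting error and compares these 2 libraries, not a condition. Both replicates held reads of myoblast and myotube markers: Myod1 had 119 reads in replicate 1 and 127 in replicate 2, and Myog had 438 and 454. Myf5, a myoblast factor, had 215 reads in replicate 1 and 60 in replicate 2. The 33 genes took 5382 of 773408 reads of annotated genes (0.696%) in replicate 1 and 4960 of 722647 (0.686%) in replicate 2.

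Together the 33 genes averaged 6911 ± 67.3 CPM (SD, n = 2 libraries). The hnRNP genes gave 4600 CPM in replicate 1 and 4464 CPM in replicate 2, the Srsf genes 1980 and 2034, the Tra2 genes 214.6 and 251.9, and the Srrm genes 164.2 and 113.5. These are reads per library, not values per transcript length. The 2 libraries gave close sums for the hnRNP and Srsf genes, while the Srrm sum was higher in replicate 1.

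**Figure D1:**
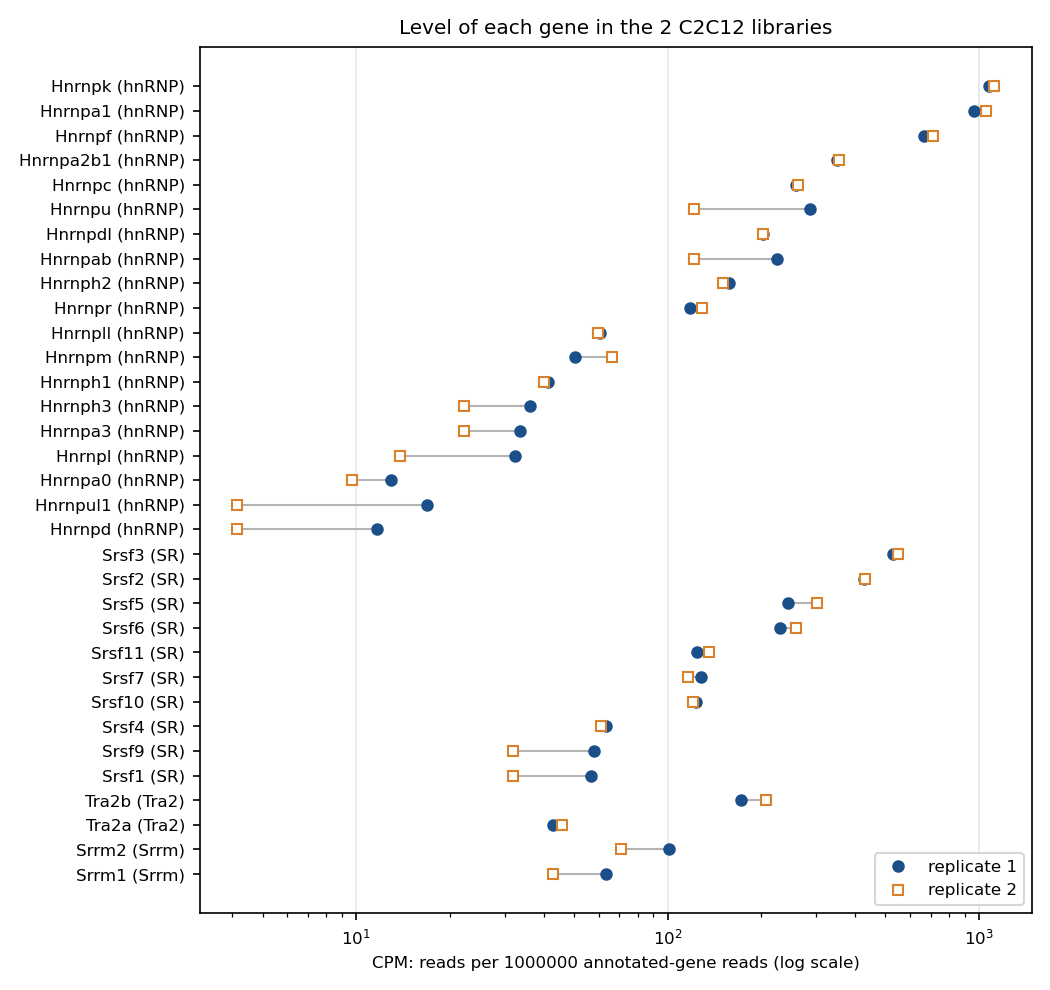
Level of each of the 33 genes in CPM on a log scale, with replicate 1 as filled circles and replicate 2 as open squares. The pairs nearly coincide for most genes with many reads, while Hnrnpu and Hnrnpab sit apart, with 287 and 225 CPM in replicate 1 and 121.8 CPM each in replicate 2.

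Each read had been placed by the authors on a transcript model. A complete model either matches an annotated transcript or has an intron chain outside the annotation, and an incomplete one covers part of a transcript. Complete models took 82.7% of the reads of the 33 genes in replicate 1 and 87.0% in replicate 2, against 84.0% and 88.3% over all annotated genes. The 33 genes had 539 complete models in all, of which 100 were annotated transcripts and 439 (81.4%) were unannotated chains. Models that held a poison exon numbered 28, of which 8 were of Hnrnpa1. An intron of a coding transcript was retained in 74 models, and 36 retained one that no coding transcript retains. The same counts of models over all annotated genes are not given, and 304 of the 439 chains rested on a single read. Shares of reads over all annotated genes are given further below.

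**Figure D2:**
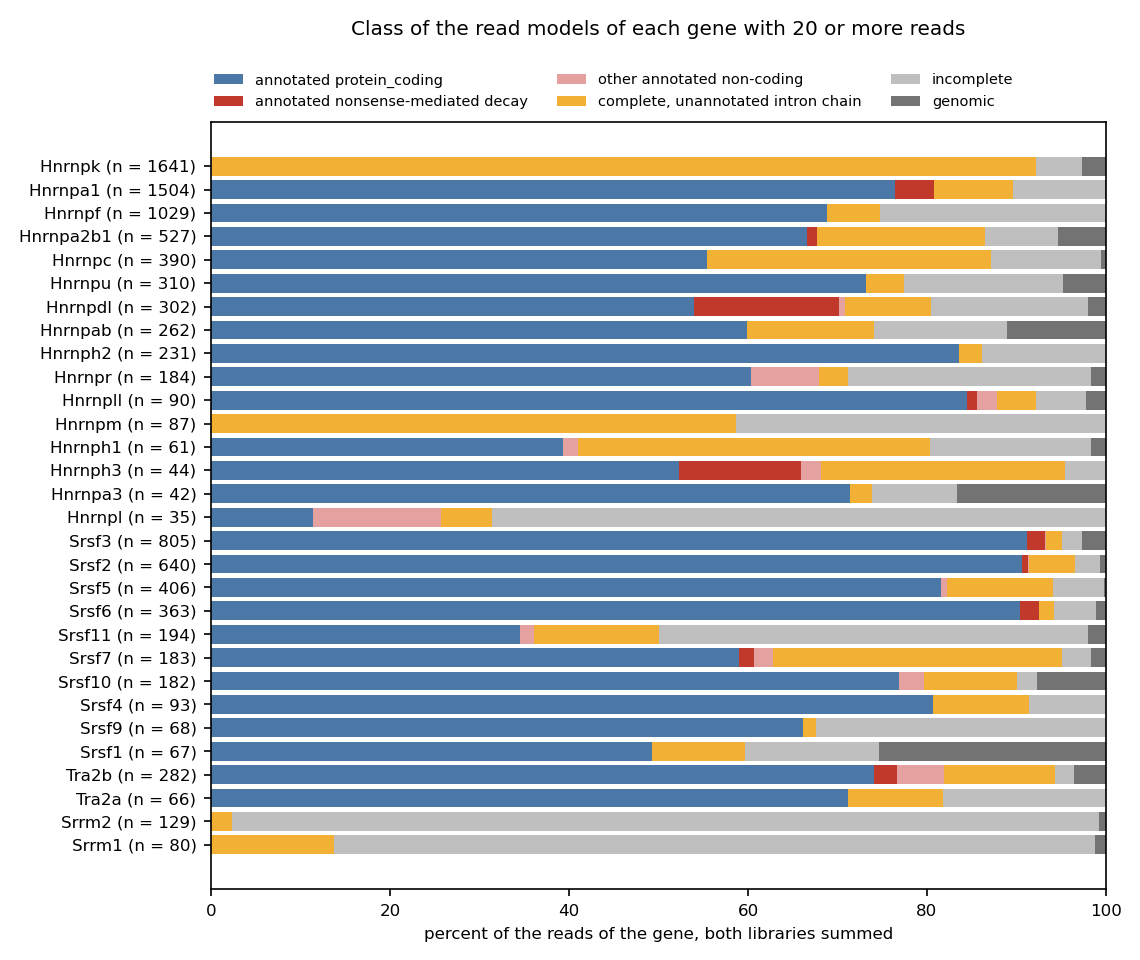
Share of the reads of each gene, both libraries summed, by class of model, for the genes with 20 or more reads, whose number of reads stands beside the name. Hnrnpk is almost wholly on unannotated chains (1512 of 1513 complete reads), Hnrnpdl and Hnrnph3 hold the widest bands of annotated decay transcripts, and Srrm2 and Srrm1 are nearly all incomplete.

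Hnrnpk (chr13:58391142-58403343, minus strand, mm10), which codes for a KH-domain protein that binds cytosine-rich RNA and DNA, had 833 reads in replicate 1 and 808 in replicate 2. Of its 1641 reads, 1 lay on an annotated transcript. Nearly all of its reads left the annotation at 1 place. Every CCDS transcript of the gene, that is, every one whose coding sequence is in the consensus set, holds a 16-base exon at chr13:58393853-58393868. No read model held that exact exon: 788 reads in replicate 1 and 793 in replicate 2 had an intron running across it, and 0 in either library had the exon with both of its annotated ends. Its bases were part of a longer exon in the few reads that retained the intron before it (1 in replicate 1 and 2 in replicate 2) or the intron after it (0 and 2). In 719 reads of replicate 1 and 700 of replicate 2 the intron across the exon began, in transcript order, 16 bases inside the annotated intron. The exon before the 16-base one was thus lengthened by 16 bases at chr13:58394060-58394075. A further 50 and 68 reads lengthened it by 5 bases, and 9 and 7 reads skipped the exon with no added base. The exon and the bases found in its place are shown because nearly all unannotated Hnrnpk reads rest on them; both run 5′ to 3′ on the transcript strand, and capitals mark the positions at which they differ.
Hnrnpk annotated 16-base exon: gGtgGTtCtGGataTG
Hnrnpk bases added in the read models: gTtgAGtAtCAataAT

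The 2 runs had the same length and were identical at 8 of 16 positions. Translated from the annotated start codon as modelled, all 748 assessed reads of replicate 1 and all 759 of replicate 2 met a stop codon more than 50 bases before the last junction. Read bases were not analysed here, so which of the 2 runs the reads carried was not tested, and the early stop is a property of the deposited models.

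The same measure was taken on every exon of 60 bases or fewer that all CCDS transcripts of a gene share. Counted were reads that held the exact exon or had an intron running across it, and 20 or more were asked. Reads with another end of the exon, or with its bases inside a longer exon, were not counted. Over all genes, 19 such exons had 15 bases or fewer, and none of the 19 was in any read model with both annotated ends. Of 23 exons of 16 to 20 bases, 6 were in no model with both annotated ends. Over the 23, the median was 64.1% of the reads counted. The median was 93.8% for 61 exons of 21 to 25 bases, 96.5% for 137 of 26 to 30 bases, and 99.5% for 516 of 31 to 40 bases. Among the 33 genes, the Hnrnpk exon and an 8-base exon of Hnrnpm (chr17:33669169-33669176) were the ones that no model held with both annotated ends. For Hnrnpm, an RNA recognition motif protein known as a splicing regulator, 19 reads of replicate 1 and 32 of replicate 2 ran across that exon. None of its 51 complete reads matched an annotated transcript. Hnrnpm also shares 1149 bases with annotated transcripts of March2 (58 reads in replicate 1 and 34 in replicate 2), so its level of 39 and 48 reads is uncertain. By contrast, 156 exons over 60 bases of the 33 genes were shared by all CCDS transcripts and had 20 or more reads counted. Of these, 153 were in more than 90% of the reads counted.

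**Figure D3:**
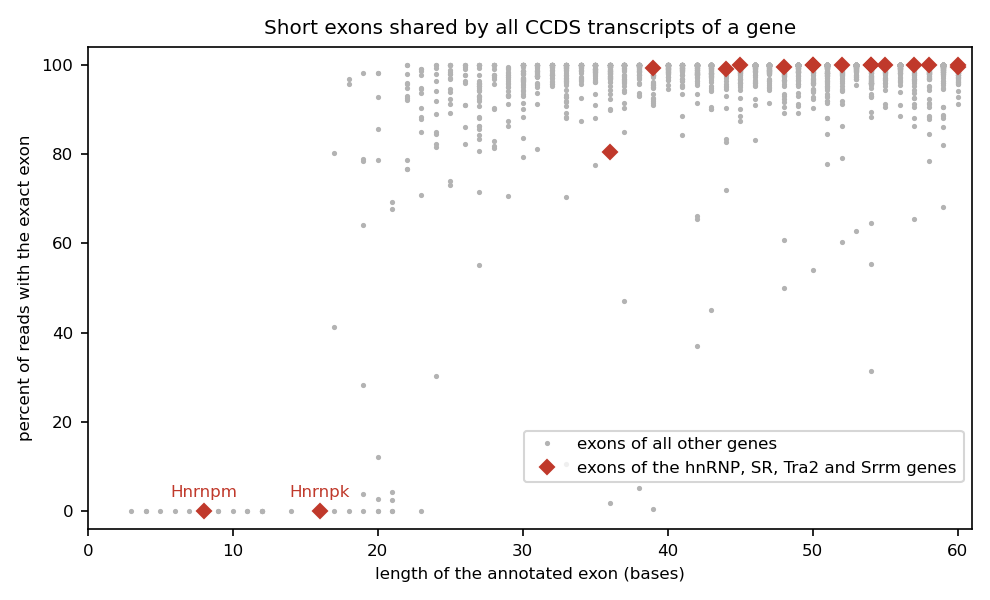
Percent of reads that hold the exact annotated exon, among reads that hold it or have an intron across it, against exon length in bases. Drawn are exons of 60 bases or fewer that all CCDS transcripts of a gene share, with 20 or more such reads. Red diamonds are exons of the hnRNP, SR, Tra2 and Srrm genes and grey points those of all other genes; the Hnrnpm exon of 8 bases and the Hnrnpk exon of 16 bases lie at 0%, and the lowest of the other diamonds is the 36-base exon of Srsf7 at 80.4%.

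Elsewhere in Hnrnpk a 72-base coding exon (chr13:58396188-58396259) was in 741 of 777 reads in replicate 1 and 737 of 782 in replicate 2, or 94.8% of all (95% Wilson interval 93.6% to 95.8%, counting error only, as for all intervals here). At the 3′ end, 477 of 792 reads in replicate 1 and 477 of 794 in replicate 2 used an acceptor that adds 60 bases, 60.2% in all. These shares were nearly the same in both libraries. Hnrnpk shares 1378 bases at 99.2% identity with the processed pseudogene Gm7964, which had 26 reads in replicate 1 and 19 in replicate 2 of its own.

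Hnrnpa1 (chr15:103240432-103246692, plus strand), a splicing repressor and shuttling protein with a glycine-rich tail, had 744 reads in replicate 1 and 760 in replicate 2. The coding transcript Hnrnpa1-202 took 488 of 591 annotated reads in replicate 1 and 539 of 624 in replicate 2. The gene also gave the most reads on an annotated decay transcript: Hnrnpa1-203 had 35 reads in replicate 1 and 31 in replicate 2, which is 5.43% of its annotated reads. The 76-base exon that marks this transcript was in 54 and 46 reads, counting incomplete models. In 84 of the 85 complete reads with that exon the frame had already ended before it, so it lay in the 3′ untranslated region and added a junction after the normal stop. In the remaining read the frame could not be followed. The pseudogene Gm10052, identical to Hnrnpa1 over 960 bases, had 13 reads in replicate 1 and 6 in replicate 2.

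Hnrnpa2b1 (chr6:51460932-51469894, minus strand) codes for the A2 and B1 proteins, which bind pre-mRNA and also take part in RNA transport. It had 271 reads in replicate 1 and 256 in replicate 2. The 36-base exon that gives B1 its extra residues was in 16 of 227 reads of replicate 1 and 16 of 243 of replicate 2, 6.81% in all (4.86% to 9.45%). A 120-base exon was in 100 of 233 reads of replicate 1 and 98 of 243 of replicate 2, 41.6% in all (37.3% to 46.1%). Thus most reads were of the A2 form, and both libraries gave nearly the same mixture. Its decay transcript Hnrnpa2b1-209 had 5 reads in replicate 1 and 1 in replicate 2.

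Hnrnpab (chr11:51600100-51606847, minus strand), a DNA- and RNA-binding protein also called CArG-box binding factor A, had 174 reads in replicate 1 and 88 in replicate 2. Its 141-base exon was in 60 of 149 reads of replicate 1 and 33 of 74 of replicate 2, 41.7% in all (35.4% to 48.3%). Although the level differed between libraries, the share of the longer form had overlapping intervals. The alternative coding exons of Hnrnpa2b1 and Hnrnpab are printed because they separate the protein forms; each runs 5′ to 3′ on the transcript strand, from GENCODE M21 transcripts on mm10.
Hnrnpa2b1 36-base exon, chr6:51467391-51467426, minus strand: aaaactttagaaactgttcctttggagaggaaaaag
Hnrnpa2b1 120-base exon, chr6:51464428-51464547, minus strand: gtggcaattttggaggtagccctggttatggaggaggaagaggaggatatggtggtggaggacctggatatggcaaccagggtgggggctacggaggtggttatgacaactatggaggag
Hnrnpab 141-base exon, chr11:51601750-51601890, minus strand: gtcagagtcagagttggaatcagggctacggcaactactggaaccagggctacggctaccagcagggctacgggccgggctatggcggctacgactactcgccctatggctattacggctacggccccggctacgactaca

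**Figure D4:**
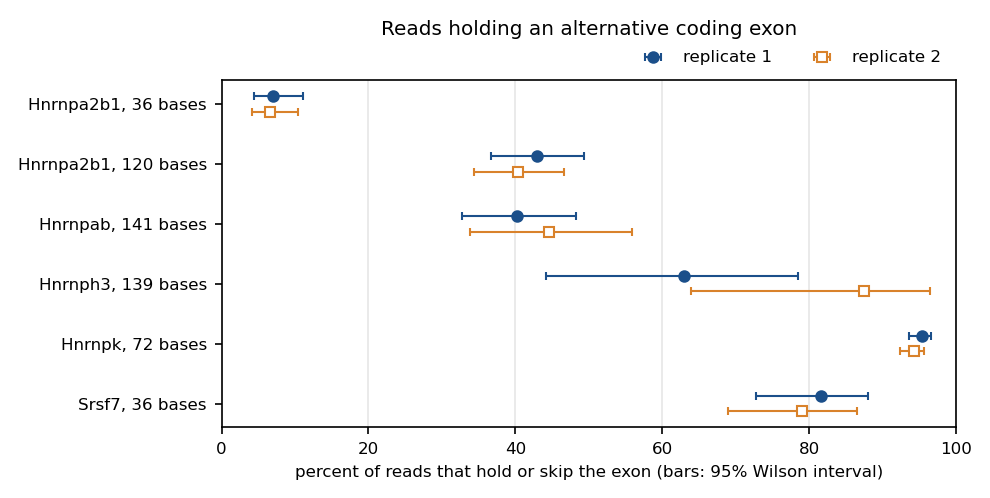
Percent of reads that hold each alternative coding exon, among reads that hold or skip it, with 95% Wilson intervals as bars; replicate 1 is the filled circle above and replicate 2 the open square below. The intervals of the libraries overlap for each of the 6 exons drawn, which range from 6.81% (Hnrnpa2b1, 36 bases) to 94.8% (Hnrnpk, 72 bases) over both libraries. That range follows from the choice of exons, since those held by nearly all or nearly no reads are left out. Exons with few reads, exons not wholly in coding sequence and those of Hnrnpa1 are left out as well.

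Hnrnpc (chr14:52073377-52104028, minus strand) codes for the C1 and C2 proteins, which bind uridine tracts. It had 200 reads in replicate 1 and 190 in replicate 2. A donor site that adds 39 bases was used in 66 of 181 reads of replicate 1 and 39 of 178 of replicate 2, which is 36.5% and 21.9%. The libraries thus lay further apart here than at the alternative coding exons of Hnrnpk, Hnrnpa2b1 and Hnrnpab, and this difference was not tested by itself. They lay wider apart still at a 139-base coding exon of Hnrnph3, on fewer reads. That exon was in 17 of 27 reads of replicate 1 and 14 of 16 of replicate 2, which is 63.0% and 87.5%. A 26-base exon of Hnrnpc that is not coding was in 98 of 175 reads of replicate 1 and 85 of 167 of replicate 2, 53.5% in all. The gene spread over 8 annotated transcripts and 30 unannotated chains, and 36.5% of its complete reads were on unannotated chains.

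Hnrnpf and Hnrnph2, whose proteins bind runs of guanines, had 516 and 122 reads in replicate 1 and 513 and 109 in replicate 2. Hnrnpf (chr6:117900324-117925622, plus strand) had no read on a decay or retained-intron transcript. Its forms differed at the 5′ end: Hnrnpf-201 had 177 and 186 reads, and Hnrnpf-209 had 88 and 102. An intron outside the annotation, chr6:117907880-117917469, recurred there with 24 reads in replicate 1 and 29 in replicate 2. In Hnrnph2 a 45-base exon outside the coding part was in 25 of 103 reads of replicate 1 and 24 of 97 of replicate 2.

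Hnrnpdl (chr5:100033577-100039664, minus strand) codes for an AU-rich element binding protein related to hnRNP D. It had 156 reads in replicate 1 and 146 in replicate 2. The decay transcript Hnrnpdl-201 took 25 of 112 annotated reads in replicate 1 and 24 of 102 in replicate 2. With 1 further read on each of a processed and a retained-intron transcript, 23.8% of its annotated reads (18.6% to 29.97%) were on transcripts other than protein-coding ones, and no gene of the 33 with 20 annotated reads had a higher share. In 50 of its 53 early-stop reads the stop was one that a coding transcript also uses, with a junction after it.

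Hnrnph3, a close relative of the F and H proteins, had a similar share from fewer reads: 6 of 19 annotated reads in replicate 1 and 1 of 11 in replicate 2 were non-coding, 23.3% in all (11.8% to 40.9%). The decay transcript Hnrnph3-204 gave 5 and 1 of them. Hnrnpr, an RNA-binding protein with a part in transport in nerve cells, had 91 reads in replicate 1 and 93 in replicate 2. Its 14 non-coding reads were all on the retained-intron transcript Hnrnpr-211, with 11 in replicate 1 and 3 in replicate 2. That transcript keeps a 121-base coding intron at chr4:136339298-136339418, which was retained in 11 of 71 reads of replicate 1 and 3 of 67 of replicate 2.

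Hnrnpu (chr1:178321108-178337797, minus strand), a nuclear matrix and chromatin-associated RNA-binding protein, had 222 reads in replicate 1 and 88 in replicate 2. All of its annotated reads were on the 1 coding transcript Hnrnpu-201, 171 and 56. Hnrnpll, known for splicing of Ptprc in lymphocytes, had 47 reads in replicate 1 and 43 in replicate 2. Hnrnph1 had 32 and 29, and Hnrnpl, which binds CA repeats, 25 and 10. Hnrnpa0 had 10 and 7 reads, Hnrnpul1 13 and 3, and Hnrnpd, an AU-rich element binding protein, 9 and 3. Hnrnpa3 had 26 reads in replicate 1 and 16 in replicate 2, but near-identical copies held more than that: Gm5641, identical over 1488 bases, had 34 and 15 reads, Gm11847 had 10 and 12, and Gm5940 had 9 and 5. The level of Hnrnpa3 is therefore uncertain.

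Among the SR genes, Srsf3 (chr17:29032628-29043373, plus strand), the smallest SR protein, had 408 reads in replicate 1 and 397 in replicate 2. Coding transcript Srsf3-202 took 364 of 382 complete reads in replicate 1 and 370 of 383 in replicate 2. Its 456-base poison exon was in 9 of 390 reads of replicate 1 and 8 of 387 of replicate 2, 2.19% in all (1.37% to 3.48%). In 16 of the 17 reads the frame ended inside the exon, after 31 of its bases. Srsf3 also differed in retained introns: the 393-base coding intron was retained in 17 of 403 reads of replicate 1 and 0 of 388 of replicate 2, and the 90-base one in 15 of 406 and 0 of 388. Of its reads with an intron that no coding transcript retains, 14 in replicate 1 were of the class that the authors named genomic, and 0 in replicate 2. The genomic class took 165 reads of the 33 genes in replicate 1 and 65 in replicate 2, and its part in this difference was not tested.

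Poison exons were also read in Srsf4 and Srsf7. Srsf4 (chr4:131873617-131901706, plus strand), one of the longer SR proteins, had 49 reads in replicate 1 and 44 in replicate 2. A 207-base poison exon was in 3 of 43 reads of replicate 1 and 4 of 41 of replicate 2, 8.33% in all (4.10% to 16.2%). Of the exons after it, the 184-base one was in 4 of 44 and 2 of 39 reads, and the 174-base one in 4 of 44 and 5 of 41, 10.6% in all (5.67% to 18.9%). The frame ended inside the 207-base exon in all 7 of its reads, but before the 184-base exon in all 6 of its reads and before the 174-base exon in 8 of 9, the remaining read staying open. Of the 7 complete models of Srsf4, 5 held a poison exon and all 5 were unannotated combinations; no read lay on an annotated decay transcript. Srsf7 (chr17:80200080-80207307, minus strand), which also carries a zinc knuckle, had 99 reads in replicate 1 and 84 in replicate 2. Its 460-base poison exon was in 6 of 90 reads of replicate 1 and 1 of 76 of replicate 2, 4.22% in all (2.06% to 8.45%), and in all 7 reads the frame ended inside it.

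Srsf11, an SR-related protein of the U2AF-binding kind, had 96 reads in replicate 1 and 98 in replicate 2. Its 117-base poison exon was in 3 of 82 reads of replicate 1 and 2 of 88 of replicate 2, and the 109-base one in 3 of 82 and 0 of 88. Complete models held 97 of the 194 reads of Srsf11. Tra2b (chr16:22244549-22266005, minus strand), a splicing activator that binds GAA-rich exons, had 133 reads in replicate 1 and 149 in replicate 2. The 276-base poison exon was in 4 of 112 reads of replicate 1 and 4 of 138 of replicate 2, 3.20% in all (1.63% to 6.19%), with the stop inside it in all 8. A 397-base form of that exon, sharing 1 end, was in 0 of 242 reads. Tra2b also had 7 reads in replicate 1 and 8 in replicate 2 on the transcript Tra2b-203, annotated as retained-intron. Of the 266 complete Tra2b reads, these included, 0 kept a whole intron of a coding transcript. With the decay transcript Tra2b-206 (4 and 3), Tra2b-203 made 9.52% of the annotated Tra2b reads non-coding. The corresponding share was 6.09% in Srsf7, 4.29% in Srsf11, 3.80% in Hnrnpll and 3.45% in Srsf10, and 1 of 25 reads in Hnrnph1. For the 4 poison exons below the part read in frame is printed, from the first base of the exon to the stop codon in capitals, since that codon is what the exon adds; positions are on mm10 and letters run 5′ to 3′ on the transcript strand.
Srsf3, chr17:29039454-29039487, plus strand: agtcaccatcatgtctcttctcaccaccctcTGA
Srsf4, 207-base exon, chr4:131884276-131884390, plus strand: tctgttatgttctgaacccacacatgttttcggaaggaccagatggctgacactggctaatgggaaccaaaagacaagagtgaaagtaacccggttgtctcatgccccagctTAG
Srsf7, chr17:80205054-80205081, minus strand: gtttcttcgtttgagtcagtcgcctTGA
Tra2b, chr16:22259181-22259261, minus strand: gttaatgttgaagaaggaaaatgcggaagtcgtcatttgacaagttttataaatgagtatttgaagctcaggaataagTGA

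The stop came after 31 bases in Srsf3, 112 in Srsf4, 25 in Srsf7 and 78 in Tra2b. In Srsf4 that stop was met in 6 of 7 reads, and in the other the stop lay elsewhere in the exon. An 83-base poison exon of Hnrnpll was in 1 of 43 reads in replicate 1 and 1 of 39 in replicate 2, which is under the 3 reads asked of the others. Annotated poison exons of Tra2a (0 of 54 reads), Srsf9 (0 of 47) and Srrm1 (0 of 60 for the 282-base exon) were not detectable at this depth, with upper Wilson limits of 6.64%, 7.56% and 6.02%.

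**Figure D5:**
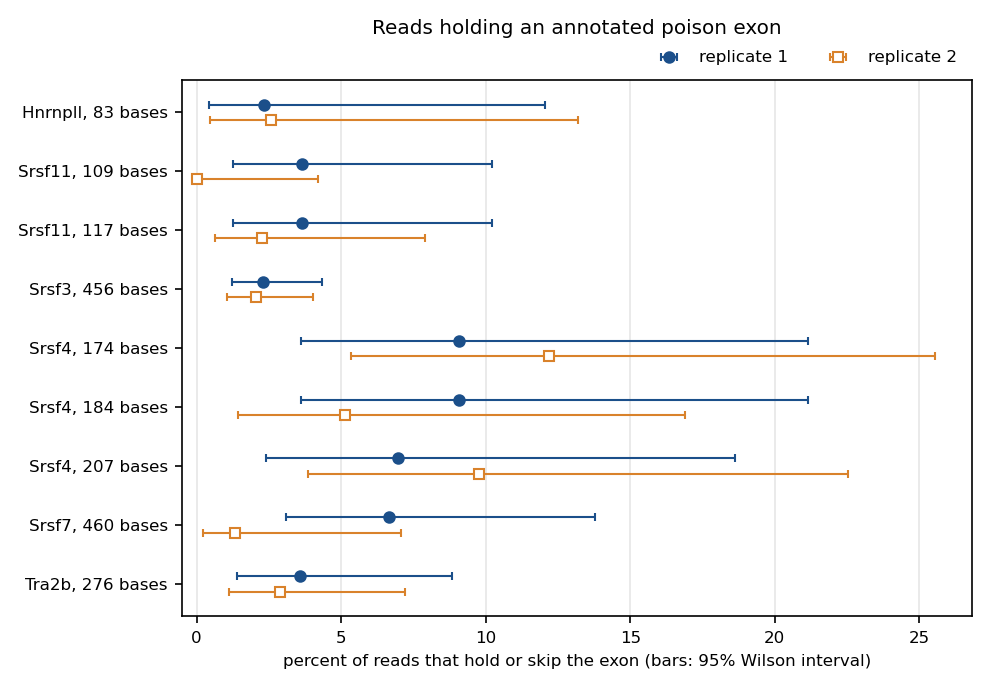
Percent of reads that hold each annotated poison exon with 2 or more reads, among reads that hold or skip it, with 95% Wilson intervals; replicate 1 is the filled circle above and replicate 2 the open square below, and the Hnrnpa1 exon in the untranslated region is left out. In the 184-base and 174-base exons of Srsf4 no frame ended inside the exon. The intervals of the libraries overlap for every exon drawn, and the exons of Srsf4 lie between 5.13% and 12.2%.

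Srsf2 (chr11:116849901-116853094, minus strand), a core splicing factor of nuclear speckles, had 330 reads in replicate 1 and 310 in replicate 2. A 502-base intron in its 3′ untranslated region was kept in 302 of 323 reads of replicate 1 and 296 of 310 of replicate 2. Splicing in that region is known to give decay forms by which the protein limits itself, but an annotated coding transcript also splices this intron out. The annotated decay transcripts of Srsf2 had 3 reads in replicate 1 and 1 in replicate 2, while an unannotated chain with an early stop had 15 and 11. Srsf5 had 188 reads in replicate 1 and 218 in replicate 2, and a 21-base stretch annotated as an intron was kept in all 169 reads of replicate 1 and all 200 of replicate 2 that spanned it. Srsf1, the prototype of the family, had 44 reads in replicate 1 and 23 in replicate 2. A 378-base intron outside its coding span was kept in all 42 and all 21 reads that spanned it. Of the Srsf1 reads, 17 in replicate 1 and 0 in replicate 2 were of the genomic class.

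Srsf6 had 177 reads in replicate 1 and 186 in replicate 2, with 3 and 5 on the decay transcript Srsf6-201. Srsf10, a splicing repressor in its dephosphorylated form, had 95 and 87 reads, and Srsf9 had 45 and 23. A 36-base coding exon of Srsf7 was in 80 of 98 reads of replicate 1 and 64 of 81 of replicate 2. Tra2a, the paralogue of Tra2b, had 33 reads in each library, all of its 47 annotated reads on coding transcripts. Srrm2, a scaffold of nuclear speckles, had 78 reads in replicate 1 and 51 in replicate 2, and Srrm1, a coactivator in the same bodies, had 49 and 31. Of the 129 Srrm2 reads, 3 were complete; the median CCDS transcript of that gene is 8564 bases long. For Srrm1 11 of 80 reads were complete, so transcript forms of both Srrm genes are hardly covered. Over the 33 genes, transcript length and percent complete had a Spearman correlation of -0.19, which is a description across genes that share libraries.

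Over the 33 genes, 166 of 6373 annotated reads lay on nonsense-mediated decay transcripts, 2.82% in replicate 1 and 2.38% in replicate 2, against 0.263% and 0.251% over all annotated genes. Hnrnpa1 and Hnrnpdl gave 66 and 49 of the 166. Without Hnrnpa1 the share was 1.94%. Of the genes with at least 20 annotated reads, 18 of 25 had an annotated decay transcript, against 1610 of 5511 over all genes. The share of reads within such genes alone was not taken. Among genes with 20 annotated reads and an annotated decay transcript, 10 of 18 had a read on such a transcript, against 403 of 1610 over all genes. The median gene had 157 annotated reads among the 25 with at least 20, against 78 over all such genes, and the part of depth in these counts was not tested. On retained-intron transcripts the share was 0.919% in replicate 1 and 0.676% in replicate 2, against 1.04% and 0.697% over all genes, so that the share of reads was near that of the whole libraries. Counted by gene, 10 of 18 with an annotated retained-intron transcript had a read on one, against 1242 of 3338 over all genes.

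Poison exons were in 70 of 4453 complete reads in replicate 1 and 63 of 4313 in replicate 2. That is 1.52% in all, against 0.109% over all annotated genes, with or without an annotated decay transcript. The Hnrnpa1 exon made up 85 of the 133, and without that gene the share was 0.647%. Reads that kept an intron of a coding transcript were 11.9% in replicate 1 and 12.5% in replicate 2, against 6.09% and 6.17% over all genes. Nearly all of that came from introns that another coding transcript of the same gene retains, in Srsf2, Srsf5 and Srsf1. With those left out the share was 0.742%, against 0.703% over all genes, so that strict retention was near the level of the whole libraries. The other introns among the 10 with most retaining reads were a 309-base one of Hnrnpf (118 of 119 reads in replicate 1 and 117 of 117 in replicate 2), the 486-base and 156-base ones of Hnrnpa2b1 (27 of 37 and 11 of 18; 8 of 188 and 6 of 181) and the 117-base one of Hnrnpm (6 of 17 and 8 of 32). The Hnrnpf intron was retained in incomplete models alone. Of Hnrnpa2b1 reads with an intron that no coding transcript retains, 23 in replicate 1 and 5 in replicate 2 were genomic. A further 9 and 8 were incomplete, and 4 of the 456 complete Hnrnpa2b1 reads retained such an intron.

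By reading frame, 941 of 4264 assessed reads in replicate 1 and 923 of 4161 in replicate 2 had an early stop, and 1507 of these 1864 were Hnrnpk. Leaving Hnrnpk out gave 193 of 3516 and 164 of 3402, 5.16% in all. Of those 357 reads, 210 ended at a stop that a coding transcript also uses, with a junction after it, and 147 at another stop. Hnrnpa1 (88 reads), Hnrnpdl (50) and Srsf2 (31) led the first kind. Hnrnpa2b1 and Srsf7 (22 reads each) and Srsf3 (20) led the second.

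Unannotated intron chains took 26.7% of complete reads in replicate 1 and 27.9% in replicate 2, against 7.94% and 8.69% over all annotated genes, and 11.8% and 12.5% without Hnrnpk. Of the 439 chains, 97 were read in both libraries and 304 rested on a single read. Of the 11 chains with most reads in the lower library, ties included, 7 were of Hnrnpk, led by one with 299 reads in replicate 1 and 274 in replicate 2 and one with 185 and 197. Besides those, a Hnrnpa2b1 chain that joins annotated introns in an unannotated combination had 20 and 15 reads, a Tra2b chain had 12 and 14, a Srsf2 chain 15 and 11 and a Hnrnpf chain 11 in each. The Tra2b chain differed from the annotation by 3 bases at 1 splice site. Such small shifts were common: of 248 introns outside the annotation, 110 (44.4%) lay within 6 bases of an annotated one at 1 end and shared the other, and 154 had a single read. The authors' 2 classes of unannotated chain were not kept between libraries, since 17 of the 97 shared chains carried one class in replicate 1 and the other in replicate 2, the leading Hnrnpk chain among them. Both classes are therefore counted as 1 here.

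Between the libraries, 2 of the 33 genes differed by the exact binomial test on annotated-gene totals, adjusted over all 8940 genes with 10 summed reads, where 3.98% were called (2.6% higher in replicate 1 and 1.39% higher in replicate 2). Hnrnpu was higher in replicate 1 by 1.23 on the log2 scale (counting SE 0.18, adjusted p = 2.73e-10, exact binomial). Hnrnpab was higher in replicate 1 by 0.88 (counting SE 0.19, adjusted p = 1.44e-04, exact binomial). With 6.06% of the 33 against 3.98% of all, the count is near the background. At an unadjusted p under 0.05 there were 7 of 33, against 1246 of 8940 over all genes tested. The others were Hnrnpul1, Srsf9, Hnrnpl and Srsf1, with higher levels in replicate 1, and Srsf5, with a lower one. Genomic reads were 17 and 0 for Srsf1 and 9 and 2 for Hnrnpul1. For Srsf9, incomplete reads were 19 and 3 and complete reads 26 and 20. Complete reads were 8 and 3 for Hnrnpl and 174 and 208 for Srsf5. The part of these classes in the differences was not tested. The median log2 ratio was 0.03 for the 33 genes and -0.06 for all genes tested.

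Transcript use was called in 0 of the 23 genes tested (Fisher's exact test on the most used transcript, background 0.0997% of 4011 genes called), and 1, Hnrnpc, had an unadjusted p under 0.05. Hnrnpc-205 took 43 of 173 complete reads in replicate 1 and 26 of 167 in replicate 2 (unadjusted p = 0.0427, adjusted p = 1, Fisher's exact test). The share of annotated reads on coding transcripts was called in 0 of 13 genes (background 0.778% of 1414), and 1, Hnrnpr, had an unadjusted p under 0.05, with 54 of 65 reads in replicate 1 and 57 of 60 in replicate 2 on coding transcripts.

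Genes that work with these proteins were read as well. Of 20 other hnRNP-family genes outside the symbol pattern, 19 were read in both libraries; the cold-induced Rbm3 had 832 reads in replicate 1 and 810 in replicate 2, Pcbp1 256 and 249, and Ewsr1 241 and 251. Pcbp3, a poly-C binding protein, was the only one of 18 tested that was called (background 3.98% of genes; 4 of 18 had an unadjusted p under 0.05), with 7 and 24 reads (log2 ratio -1.81, adjusted p = 0.0456, exact binomial). All 12 SR protein kinases and phosphatases were read; 0 of 10 tested were called by the exact binomial test and 2 had an unadjusted p under 0.05. Ppp1ca, a phosphatase subunit, had 857 and 858 reads, Clk3 64 and 87, and Srpk1 71 and 59. The import receptors Tnpo3, Tnpo1 and Tnpo2 had 33 and 42, 22 and 27, and 22 and 14 reads, with 0 of 3 called and 0 at an unadjusted p under 0.05 by the same test.

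Among 17 decay and exon junction complex genes, all were read and 2 of 13 tested were called, where the background is 3.98% of genes, and 4 of 13 had an unadjusted p under 0.05. Eif4a3, the helicase that anchors the complex, had 303 reads in replicate 1 and 368 in replicate 2 (log2 ratio -0.38, adjusted p = 0.0243, exact binomial), and its partner Rbm8a had 175 and 103 (0.66, adjusted p = 0.00832, exact binomial). Sap18 had 166 and 146 reads. Upf1, the central decay helicase, had 7 and 2 reads. Of 20 SR-related and splice-site recognition genes, 6 had an unadjusted p under 0.05 and 1 was called: Arglu1 had 52 reads in replicate 1 and 19 in replicate 2 (1.33, adjusted p = 0.0122, exact binomial). Puf60 had 414 and 391 reads, Rbm39 256 and 200, and U2af1, which recognises the 3′ splice site, 256 and 194.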

How the data were processed

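Long-read RNA sequencing of total RNA gave 1 table of transcript models for each of 2 C2C12 libraries. Per the file headers, the authors annotated alignments on mm10 against GENCODE M21 and deposited raw read counts per model, unnormalised, for each library apart. The aligner and its version: not given in the sources used here. The members and lists were chosen with earlier results of these data known. Complete, incomplete and genomic models were all used for levels and for exon and intron counts, and complete models alone for shares. A poison exon is an internal exon of an annotated decay transcript that overlaps no exon of a protein-coding transcript of the gene. A retained intron lies wholly inside an exon of a model. Frames were read from annotated start codons on GENCODE M21 transcript sequences. Counts were compared with the exact binomial test (genes with 10 summed reads, 0.5 reads added in log2 ratios) and Fisher's exact test (20 reads in each library), two-sided, with Benjamini-Hochberg adjustment over all genes and a threshold of 0.05, in scipy 1.17.1; 1 group of 2 libraries leaves no residual spread for a count model. TMM factors came from edgeR 4.0.16 and size factors from DESeq2 1.42.0, as alternatives. Near copies (90% identity over 300 bases) were found with minimap2 2.31-r1302. Named were all members, the 20 with most reads in depth, the 10 with the highest non-coding share, poison exons with 3 reads, the 10 introns with most retaining reads and the 10 unannotated chains with the highest lower count, and for each further list the 3 genes with most reads and all called; other items were chosen after their values were seen. Steps were tested on simulated counts. Reads are not counted by molecular identifier and need not be independent molecules, so 95% Wilson intervals, the limit of 3 counts for a count of 0 and all p-values cover counting error only. A coding exon of Hnrnpa1 is not reported here.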

Additional observations from a re-analysis of the deposited data

How the results depend on the processing

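Hnrnpu and Hnrnpab were called, higher in replicate 1, with TMM scaling, DESeq2 size factors, no read filter, 50 summed reads and complete models only; the adjusted p ranged over these from 1.10e-12 to 4.34e-10 for Hnrnpu and from 2.87e-05 to 2.28e-04 for Hnrnpab (exact binomial). Counts of 0 for transcript use and coding class use were the same with minima of 10 and 50 reads. With all reads of the genes as denominator, the decay share was 1.61% and the retained-intron share 0.493%; without Hnrnpa1, chosen after seeing the data, the decay share was 1.94% and the poison-exon share 0.647%. A reading-frame definition in place of annotated poison exons gave 22.1%, or 5.16% without Hnrnpk, left out after seeing the data. Intron retention was 14.0% over all models and 0.742% for introns no coding transcript retains. Unannotated chains took 22.3% when read in both libraries and 12.1% without Hnrnpk. The summed level was 6805 CPM over complete models. Leaving out replicate 1 or replicate 2 in turn gave 2.38% to 2.82% for decay transcripts, 0.676% to 0.919% for retained-intron transcripts, 1.46% to 1.57% for poison exons, 11.9% to 12.5% for intron retention, 26.7% to 27.9% for unannotated chains and 6864 to 6959 CPM for the sum. No paired analysis was possible because the study has 1 group. Shares rest on few reads for most genes, and forms under about 3 reads in a gene are not detectable.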
